A study of Homo sapiens with 4 samples.

Results

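The 33 genes described here code for the BCL2 family, the inhibitor of apoptosis proteins (IAPs), the caspases and their closest partners in programmed cell death. They were taken from the deposited table by gene symbol, and each symbol matched 1 of its 57815 genes. Their mRNA was compared between MDA-MB-231, a human triple-negative breast cancer cell line, and LM2-4175, a cell line of the same origin that metastasizes strongly to the lung. Neither cell line was treated, both were grown in the same medium, and total RNA of each was sequenced in 2 libraries, 4 in all. The comparison asks how the cell death machinery of the lung-metastatic line differed from that of MDA-MB-231. Each group is 1 cell line, so a difference separates these cultures and need not hold for other metastatic cells.

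The authors combined both libraries of a cell line in 1 FPKM (fragments per kilobase of transcript, scaled by the mapped fragments), given with a lower and an upper bound. What the bounds cover is not stated in the sources used here. There is therefore no spread between libraries, no test and no p-value here, and none of the differences has a replicate check. The study itself called differentially expressed genes with Cuffdiff under a rule of its own, and those calls were not used here. How many fragments were counted on genes is unknown from the table, so the precision was read from the bounds. For the members tested, the upper bound lay a median of 32.3% above the FPKM in MDA-MB-231 and 32.4% above it in LM2-4175. A change is the log2 ratio of FPKM + 1 in LM2-4175 to FPKM + 1 in MDA-MB-231. On this scale the changes of genes with low FPKM come out smaller than they are. A gene was tested where its mean FPKM was at least 0.5. It was called higher or lower where it changed by 1.5-fold or more and its bounds in one cell line lay clear of those in the other. The call sets 1 pool of libraries against another, without replicates.

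Cells die by the mitochondrial route when BAX and BAK1 open the outer mitochondrial membrane. The antiapoptotic guardians (BCL2, BCL2L1, MCL1 and their relatives) hold these effectors back, and the BH3-only proteins neutralize the guardians or activate the effectors. Released cytochrome c then assembles with APAF1 and CASP9 into the apoptosome, which starts the executioner caspases, while IAPs restrain caspases until DIABLO displaces them. Death receptors at the cell surface start a separate route through CASP8 and CASP10, for which CFLAR is the regulator. CASP1 and CASP4 belong to another branch, in which inflammasomes and bacterial products trigger an inflammatory form of death. Several of these genes (BIRC3, BCL2A1 and CFLAR among them) are known targets of NF-kB, and PMAIP1 and BBC3 are known targets of p53.

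Promoter sequences are shown for 3 of the genes called higher in LM2-4175 and for the gene called lower with the most abundant mRNA, so that their start regions can be read beside their change. Each runs from 250 bases before to 50 bases after the annotated start, 5′ to 3′ on the strand of the gene, and was taken from RefSeq on GRCh38.p14. The window of BCL2A1 is chr15:79971147-79971446 on the minus strand, that of BIRC3 chr11:102317234-102317533 on the plus strand, that of CASP4 chr11:104968525-104968824 on the minus strand and that of PMAIP1 chr18:59899746-59900045 on the plus strand. Capitals mark matches, on either strand, to the NF-kB consensus, to the interferon-stimulated response element (ISRE, searched as GAAA, any 2 bases and GAAA) and to the GC box (GGGCGG).
BCL2A1: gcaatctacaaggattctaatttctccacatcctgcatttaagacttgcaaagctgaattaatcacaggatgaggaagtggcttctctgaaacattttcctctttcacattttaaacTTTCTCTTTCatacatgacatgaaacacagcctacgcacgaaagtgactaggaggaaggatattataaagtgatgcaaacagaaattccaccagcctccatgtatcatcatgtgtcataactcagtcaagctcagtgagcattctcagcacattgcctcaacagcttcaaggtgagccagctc
BIRC3: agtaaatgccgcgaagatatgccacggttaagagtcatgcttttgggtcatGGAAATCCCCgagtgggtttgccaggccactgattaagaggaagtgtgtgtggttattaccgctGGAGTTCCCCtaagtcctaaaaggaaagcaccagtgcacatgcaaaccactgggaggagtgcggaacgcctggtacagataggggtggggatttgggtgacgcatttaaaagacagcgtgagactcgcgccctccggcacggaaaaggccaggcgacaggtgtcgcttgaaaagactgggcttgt
CASP4: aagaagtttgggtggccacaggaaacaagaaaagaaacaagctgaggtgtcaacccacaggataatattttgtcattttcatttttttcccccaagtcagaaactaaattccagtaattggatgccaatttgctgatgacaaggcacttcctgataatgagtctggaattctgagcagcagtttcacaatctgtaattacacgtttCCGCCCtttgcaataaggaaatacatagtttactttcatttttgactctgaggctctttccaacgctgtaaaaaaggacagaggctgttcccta
PMAIP1: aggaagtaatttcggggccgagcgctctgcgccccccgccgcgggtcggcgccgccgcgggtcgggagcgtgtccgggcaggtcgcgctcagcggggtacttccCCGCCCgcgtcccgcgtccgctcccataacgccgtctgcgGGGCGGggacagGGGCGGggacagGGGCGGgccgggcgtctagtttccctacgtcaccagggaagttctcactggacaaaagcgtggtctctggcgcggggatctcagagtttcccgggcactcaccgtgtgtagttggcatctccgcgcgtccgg
BIRC3 held 2 matches to the NF-kB consensus, at positions −199 to −190 and −135 to −126 counted from its start. Of all 35116 promoter windows, 11.3% held at least 1 such match. BCL2A1 held no NF-kB consensus match in its window and 1 ISRE match, at positions −133 to −124, a motif present in 3.57% of all windows. CASP4 held 1 GC box and PMAIP1 held 4, a motif present in 45% of all windows. Such a match is a description of the letters and shows no binding.

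Of the 33 members, 30 were tested, and BCL2L10, BCL2L14 and HRK fell below the filter. BCL2A1, CASP1, CASP4 and BIRC3 were called higher in LM2-4175, and PMAIP1, CASP2 and BAK1 were called lower. The 4 genes called higher are 13.3% of the members tested, beside 4.67% of all 13911 genes tested. The 3 called lower are 10% of the members tested, beside 4.61% of all genes. Either way, 7 members (23.3%) were called, beside 9.27% of all genes, and this difference in shares was not tested. The change reached 1.5-fold, with or without overlapping bounds, for 11 members (36.7%), beside 22.1% of all genes, and the bounds lay apart, whatever the fold, for 7 members, beside 9.39% of all genes. The list did not move as one. FPKM was higher in LM2-4175 for 12 members and lower for 18, the median log2 fold change was −0.16 beside −0.04 for all genes tested, and 14 members differed by less than 1.2-fold.

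**Figure D1:**
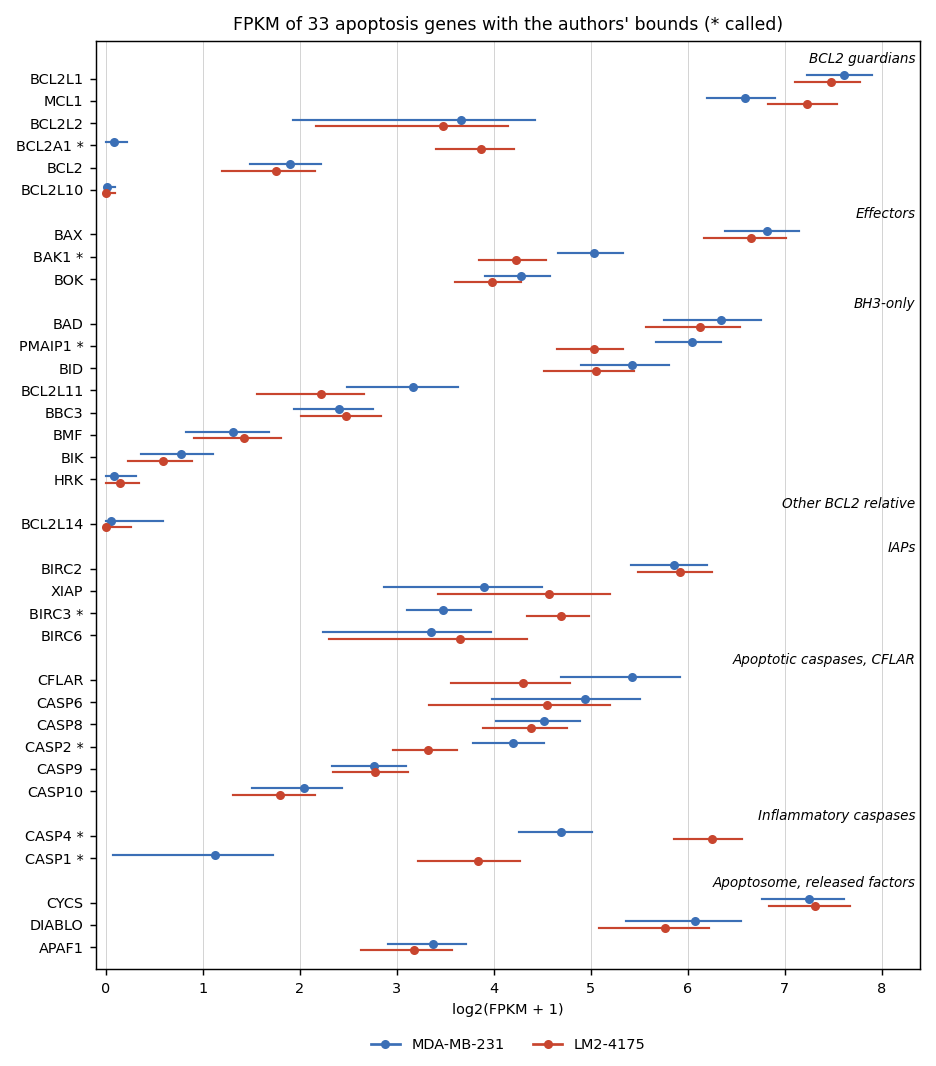
FPKM of the 33 genes in MDA-MB-231 (blue) and LM2-4175 (red) on the log2(FPKM + 1) scale, grouped by role, with horizontal lines from the authors' lower to upper bound and asterisks on the 7 genes called. The red and blue lines lie apart for BCL2A1, CASP1, CASP4, BIRC3, PMAIP1, CASP2 and BAK1 and overlap for the others.

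Among the guardians, BCL2A1 had the largest change of all members. BCL2A1 (also known as BFL1, an inhibitor of BAK1 and BAX normally found in blood cells) was at 0.0605 FPKM in MDA-MB-231, bounds from 0 to 0.165, and 13.6 FPKM in LM2-4175, with bounds from 9.61 to 17.5. Its log2 fold change of 3.78 exceeded that of 99.8% of all genes tested. The ratio of FPKM was 224, and even the nearest bounds differed 58.1-fold. BCL2A1 passed the filter on low values through LM2-4175 alone, so it could be tested only because it was high there. The gene lies at chr15:80253234-80263538 on the minus strand (GRCh37), and no annotated exon of another gene overlaps its exons. A larger share of cells with BCL2A1 mRNA and more mRNA per cell cannot be told apart in bulk RNA, here and for the other members. Of 14 white blood cell markers, 12 were under 0.5 FPKM in both lines (PTPRC had 0.0767 and 0.0263 FPKM), CD14 had 1.17 and 1.75 FPKM, and CD68, which many cells make, had 107 and 179 FPKM.

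MCL1, a short-lived guardian that holds BAK1 and BCL2L11, had 95.3 FPKM (from 72.4 to 118) in MDA-MB-231 and 149 FPKM (from 113 to 185) in LM2-4175. This is 1.56-fold higher with bounds that overlap, so MCL1 was not called. It was called higher when each cell line was rescaled to the same sum (log2 fold change 0.72) or quantile normalized (0.75), against 0.64 as deposited. BCL2L1 (BCL-xL), the most abundant guardian, had 194 FPKM (from 149 to 239) and 177 FPKM (from 137 to 218). A transcript of ABALON overlaps 41.3% of the exon bases of BCL2L1, so without strand in the counting the reads of the 2 genes cannot be told apart. BCL2L2 (BCL-w) had 11.7 FPKM (from 2.82 to 20.5) and 10.1 FPKM (from 3.50 to 16.8), with 24.8% of its exon bases overlapped by other genes, a read-through transcript to PABPN1 among them. BCL2 itself was low, at 2.73 FPKM (from 1.79 to 3.66) and 2.37 FPKM (from 1.29 to 3.46). BCL2L10, a guardian best known from oocytes, was near 0 in both lines (0.00951 and 0.00284 FPKM).

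BCL2L1, BCL2L2 and BCL2 thus had overlapping bounds and changes under 1.5-fold. The guardians summed to 304 FPKM in MDA-MB-231 and 352 FPKM in LM2-4175, a ratio of 1.16. The make-up of that sum shifted. BCL2L1 made up 63.9% of it in MDA-MB-231 cells and 50.3% in LM2-4175 cells, MCL1 held 31.4% and 42.3%, and BCL2A1 held 0.0199% and 3.86%. Without BCL2L1, the sum was 1.59 times as high in LM2-4175.

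The effectors that form the membrane pore all had lower FPKM in LM2-4175, and 1 of 3 was called. BAK1 had 31.9 FPKM (from 24.4 to 39.3) in MDA-MB-231 and 17.8 FPKM (from 13.4 to 22.2) in LM2-4175, which is 1.79-fold lower, with a log2 fold change of −0.80. The nearest bounds differed 1.10-fold, the narrowest gap among the members called, and BAK1 was not called when a 2-fold change was required. BAK1 lies at chr6:33540324-33548070 on the minus strand (GRCh37), and 7.70% of its 75-base sequence windows also occur in the pseudogene BAK1P1, so the counting could have split reads between them. The reads were paired and longer than these windows, so the share of fragments that match both genes could be smaller. BAX, the other main pore former, had 112 FPKM (from 82.6 to 141) and 99.5 FPKM (from 70.9 to 128). BOK, a less studied effector that the guardians hardly restrain, had 18.5 FPKM (from 14.0 to 23.0) and 14.8 FPKM (from 11.1 to 18.4). The effectors summed to 162 FPKM and 132 FPKM, and BAX held 68.9% and 75.3% of the sum.

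Of the 8 BH3-only genes, 7 were tested, and 5 of the 7 had lower FPKM in LM2-4175. PMAIP1 (NOXA), which binds MCL1 and BCL2A1, was called lower, with 65.1 FPKM (from 49.9 to 80.3) in MDA-MB-231 and 31.7 FPKM (from 24.2 to 39.2) in LM2-4175. The level was 2.05-fold lower, the log2 fold change was −1.02, and the nearest bounds differed 1.27-fold. PMAIP1 lies at chr18:57567228-57571537 on the plus strand (GRCh37), with no exon overlap and no shared 75-base window. BCL2L11 (BIM), which binds every guardian, was 2.19-fold lower without being called, since its bounds overlapped (7.98 FPKM with bounds from 4.61 to 11.4, and 3.64 FPKM with bounds from 1.94 to 5.34). Exons of MIR4435-2HG overlap 10.8% of its exon bases.

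The remaining BH3-only genes had overlapping bounds and changes under 1.5-fold. BID, which links CASP8 to the mitochondrion, had 41.9 FPKM (from 28.9 to 54.8) in MDA-MB-231 and 32.3 FPKM (from 22.0 to 42.6) in LM2-4175. BAD, a survival-kinase target, had 80.2 FPKM (from 53.1 to 107) and 69.1 FPKM (from 46.4 to 91.9), and GPR137 overlaps 23.7% of its exon bases. BBC3 (PUMA), the other p53 target of the group, had 4.29 FPKM (from 2.84 to 5.73) and 4.58 FPKM (from 3.03 to 6.13). Unlike PMAIP1, BBC3 differed 1.07-fold, with overlapping bounds. The difference between the changes of these genes was not tested. BMF, which responds to loss of attachment in epithelial cells, had 1.49 FPKM (from 0.777 to 2.20) and 1.69 FPKM (from 0.875 to 2.51), and BIK, which sits mainly at the endoplasmic reticulum, had 0.717 FPKM (from 0.286 to 1.15) and 0.509 FPKM (from 0.173 to 0.845). HRK, best known from neurons, was near 0 (0.0629 and 0.104 FPKM), as was BCL2L14 (0.0374 and 0.000111 FPKM), a BCL2 relative of less certain function.

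The BH3-only genes summed to 202 FPKM in MDA-MB-231 and 144 FPKM in LM2-4175, 1.40-fold lower. PMAIP1 made up 32.3% of it in MDA-MB-231 cells and 22.1% in LM2-4175 cells. The ratio of the summed guardians to the summed BH3-only and effector genes stood at 0.835 in MDA-MB-231 cells and at 1.28 in LM2-4175 cells. It was higher in LM2-4175 also without BCL2L1 (0.302 and 0.634), without MCL1 (0.573 and 0.737), without BAX (1.21 and 2.00) and without BAD (1.07 and 1.70). The FPKM of PMAIP1 was 0.683 times that of its binding partner MCL1 in MDA-MB-231 and 0.213 times in LM2-4175. These ratios are of mRNA levels and have no error, and proteins were not measured. Taken as independent, the members' bounds combined to 50.9 and 54.8 FPKM either side of the guardian sums in MDA-MB-231 and LM2-4175. For the BH3-only genes the combined bounds were 33.9 and 26.2 FPKM, and for the effectors 30.5 and 29.2 FPKM. In each of these groups the combined bounds of the cell lines overlapped.

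**Figure D2:**
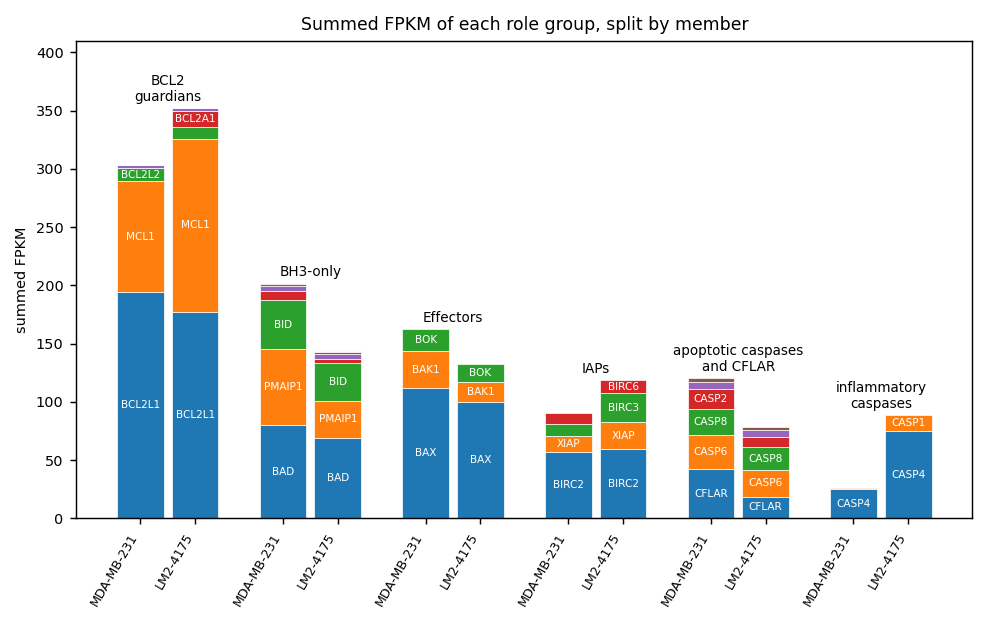
Summed FPKM of 6 role groups of the members in each cell line as stacked bars from 0, with each colour 1 member and names on members above 11 FPKM. The guardian bar was higher in LM2-4175 (304 and 352 FPKM), as were those of the IAPs (90.2 and 119 FPKM) and the inflammatory caspases (26.0 and 88.4 FPKM), whereas the other 3 bars were lower. With the members' bounds combined as if independent, the guardian, IAP, BH3-only and effector sums overlapped between the cell lines.

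All 4 IAPs among the members had higher FPKM in LM2-4175, and 1 was called. IAPs outside the members did not share this rise. BIRC5 had lower FPKM in LM2-4175 (84.0 and 63.3 FPKM) with overlapping bounds, NAIP had 2.16 and 2.14 FPKM, and BIRC7 and BIRC8 were not tested. BIRC3 (cIAP2), a ubiquitin ligase of TNF receptor complexes, had 10.1 FPKM (from 7.59 to 12.6) in MDA-MB-231 and 25.0 FPKM (from 19.3 to 30.7) in LM2-4175, which is 2.47-fold higher with a log2 fold change of 1.23. It lies at chr11:102188215-102210134 on the plus strand (GRCh37). Its neighbour and paralog BIRC2 (cIAP1), which starts 7.81 kb after the end of BIRC3 on the same strand, had 56.9 FPKM (from 41.6 to 72.3) and 59.6 FPKM (from 43.8 to 75.3). The pair differed in level and in change, with BIRC3 at 0.177 times the FPKM of BIRC2 in MDA-MB-231 and 0.419 times in LM2-4175. No 75-base window of BIRC3 or BIRC2 occurs in a transcript of another gene.

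XIAP, the IAP that blocks caspases directly, had 14.0 FPKM (from 6.29 to 21.7) in MDA-MB-231 and 22.7 FPKM (from 9.75 to 35.6) in LM2-4175. The difference of 1.62-fold had overlapping bounds, which lay 55.0% and 57.0% above the FPKM. BIRC6, a giant IAP and ubiquitin-conjugating enzyme, had 9.21 FPKM (from 3.71 to 14.7) and 11.6 FPKM (from 3.91 to 19.3). The IAPs among the members summed to 90.2 FPKM and 119 FPKM, of which BIRC2 held 63.1% and 50.1%. Their combined bounds lay 18.2 and 22.5 FPKM either side of these sums and overlapped. Without BIRC2 the sum was 1.78 times as high in LM2-4175, against 1.32 times with it.

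Among the caspases of apoptosis and their regulator CFLAR, 5 of 6 genes had lower FPKM in LM2-4175, and 1 was called. CASP2, an initiator that responds to DNA damage and extra centrosomes, had 17.3 FPKM (from 12.8 to 21.8) in MDA-MB-231 and 9.03 FPKM (from 6.76 to 11.3) in LM2-4175. The level was 1.92-fold lower with a log2 fold change of −0.87, the nearest bounds differed 1.13-fold, and the call was lost when a 2-fold change was required. CASP2 lies at chr7:142985308-143004789 on the plus strand (GRCh37) and shares no exon base with another annotated gene.

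CFLAR (c-FLIP), the catalytically dead relative of CASP8 that controls it at death receptors, showed the largest decrease of the members, yet its bounds overlapped. It had 42.1 FPKM (from 24.8 to 59.5) in MDA-MB-231 and 18.7 FPKM (from 10.8 to 26.6) in LM2-4175, 2.25-fold lower with a log2 fold change of −1.13, and 12.1% of its exon bases are overlapped by other genes. CASP8 had 22.0 FPKM (from 15.2 to 28.7) and 19.9 FPKM (from 13.8 to 26.0), and its close relative CASP10 had 3.12 FPKM (from 1.83 to 4.41) and 2.47 FPKM (from 1.48 to 3.46). The FPKM of CFLAR was 1.92 times that of CASP8 in MDA-MB-231 and 0.939 times in LM2-4175. CFLAR, CASP10 and CASP8 stand in a row on chromosome 2, with starts 66.7 and 117 kb after that of CFLAR.

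Of the others, CASP9, the initiator of the apoptosome, differed least of all members, with 5.79 FPKM (from 4.03 to 7.55) in MDA-MB-231 and 5.86 FPKM (from 4.06 to 7.65) in LM2-4175. The executioner CASP6 had 29.8 FPKM (from 14.9 to 44.7) and 22.4 FPKM (from 9.11 to 35.8). The 6 genes summed to 120 FPKM and 78.4 FPKM, 1.53-fold lower in LM2-4175. Without CFLAR the sum was 1.31-fold lower.

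The partners of the apoptosome differed by less than 1.5-fold. CYCS, the cytochrome c gene, had 151 FPKM (from 108 to 195) in MDA-MB-231 and 159 FPKM (from 113 to 204) in LM2-4175. DIABLO (SMAC), the IAP antagonist released with it, had 66.4 FPKM (from 40.3 to 92.6) and 53.4 FPKM (from 33.1 to 73.8), and 32.3% of its exon bases are overlapped by other genes. APAF1, the scaffold, had 9.35 FPKM (from 6.53 to 12.2) and 8.02 FPKM (from 5.20 to 10.8). Each of the 3 had overlapping bounds, and their sum was 227 FPKM and 220.0 FPKM.

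Both inflammatory caspases of the list were called higher in LM2-4175. CASP1, which matures interleukins and cleaves gasdermin D, had 1.18 FPKM (from 0.0557 to 2.30) in MDA-MB-231 and 13.3 FPKM (from 8.30 to 18.4) in LM2-4175. The level was 11.3-fold higher with a log2 fold change of 2.72, and the nearest bounds differed 3.61-fold. Of its 75-base windows, 2.14% also occur in CARD16, an adjoining paralog that keeps the CARD of CASP1 without its protease, which was also called higher (1.08 and 7.45 FPKM), so reads could have been split between them. Here too the paired reads were longer than the windows. CASP4, the sensor of intracellular lipopolysaccharide, had 24.8 FPKM (from 18.2 to 31.4) and 75.1 FPKM (from 57.0 to 93.3), 3.03-fold higher with a log2 fold change of 1.56. CASP4 lies at chr11:104813593-104840093 and CASP1 at chr11:104896124-104905977, both on the minus strand (GRCh37), within 92.4 kb. CASP5, which lies between them, was near 0 in both lines (0.0187 and 0.0293 FPKM). Of the sum of CASP1 and CASP4, CASP4 held 95.5% in MDA-MB-231 cells and 84.9% in LM2-4175 cells.

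**Figure D3:**
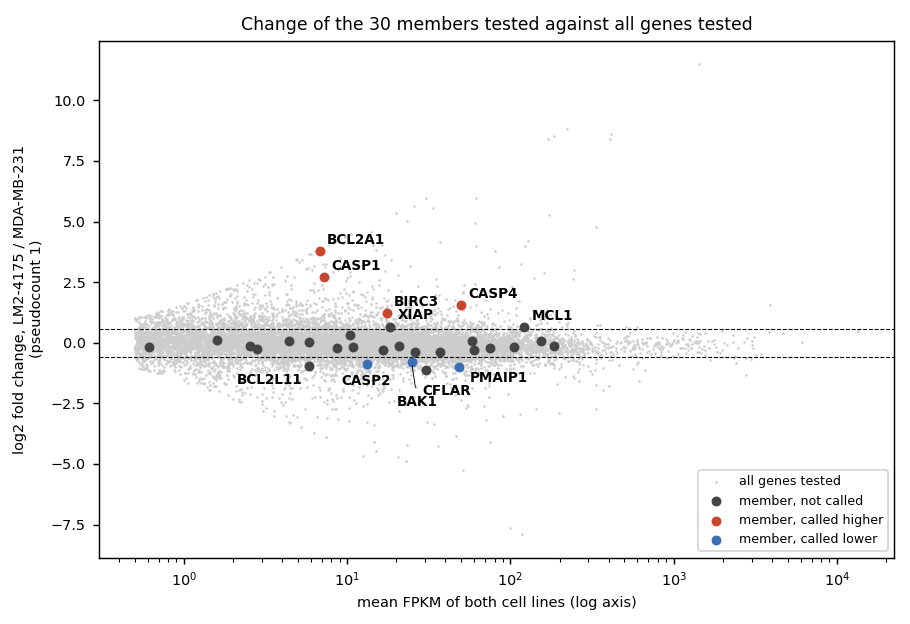
Log2 fold change of the 30 members tested (large points) against their mean FPKM (log axis), over all 13911 genes tested in grey, with dashed lines at a 1.5-fold change. BCL2A1, CASP1, CASP4 and BIRC3 (red) lie above the upper line and PMAIP1, CASP2 and BAK1 (blue) below the lower one, while most members lie between the lines and 4 (dark) lie outside them with overlapping bounds.

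Within 3 Mb, the median change of the neighbours had the same sign as the change of each of the 7 members called. The sign was also the same for most members tested and not called. It differed for BCL2L2, MCL1, BMF, BBC3, BIRC6, CASP6 and CASP9. Protein-coding genes tested within 3 Mb on either side were taken as neighbours, without the members. The 30 neighbours of BCL2A1 had a median log2 fold change of 0.43, 25 of them were higher in LM2-4175, and BCL2A1 exceeded every one. The median was 0.47 for the 16 neighbours of CASP1, 0.48 for the 17 of CASP4 and 0.48 for the 11 that BIRC3 shares with BIRC2. On chromosome 11 the sign turned over wider windows. Within 10 Mb the median was −0.23 for CASP1, CASP4 and BIRC3. Some neighbours passed the filter through 1 cell line alone. Among the 13 neighbours of CASP1 that had at least 0.5 FPKM in each line, the median was 0.0031, and among the 14 of CASP4 it was 0.23, while for the other members called this limit moved it by less. The neighbours of CASP1, CASP4 and BIRC3 are in part the same genes.

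For the members called lower, the median was −0.46 for the 16 neighbours of PMAIP1, of which 15 were lower, −0.58 for the 18 of CASP2, of which 15 were lower, and −0.29 for the 36 of BAK1, of which 32 were lower. PMAIP1 was below 13 of its 16 neighbours, CASP2 below 13 of 18 and BAK1 below 31 of 36. CFLAR, at −1.13, stood apart from the 35 neighbours that it shares with CASP8 and CASP10, which had a median of −0.18. MCL1, at 0.64, had 60 neighbours with a median of −0.11. The part of the neighbourhood in the members' changes was not tested.

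The stretch of chromosome 11 from BIRC3 to CASP1 holds 19 protein-coding genes, with IAPs at one end, caspases at the other and matrix metalloproteinases between them. Of the 10 tested, 5 were called higher, beside 4.67% of all genes, and 0 lower. The stretch was marked out by members called higher, BIRC3, CASP4 and CASP1, so this count is a description. The other calls, named after their values were seen, were the collagenase MMP1 (22.7 and 643 FPKM) and the growth factor PDGFD (0.254 and 1.62 FPKM). PDGFD, like the uncalled MMP3 (0.0241 FPKM in MDA-MB-231), passed the filter through LM2-4175 alone. The 4 genes there that are not members and had at least 0.5 FPKM in each cell line include MMP1. Their median log2 fold change was 0.20, from values of 4.77 for MMP1, 0.64 for DYNC2H1, −0.23 for DCUN1D5 and −0.45 for TMEM123.

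**Figure D4:**
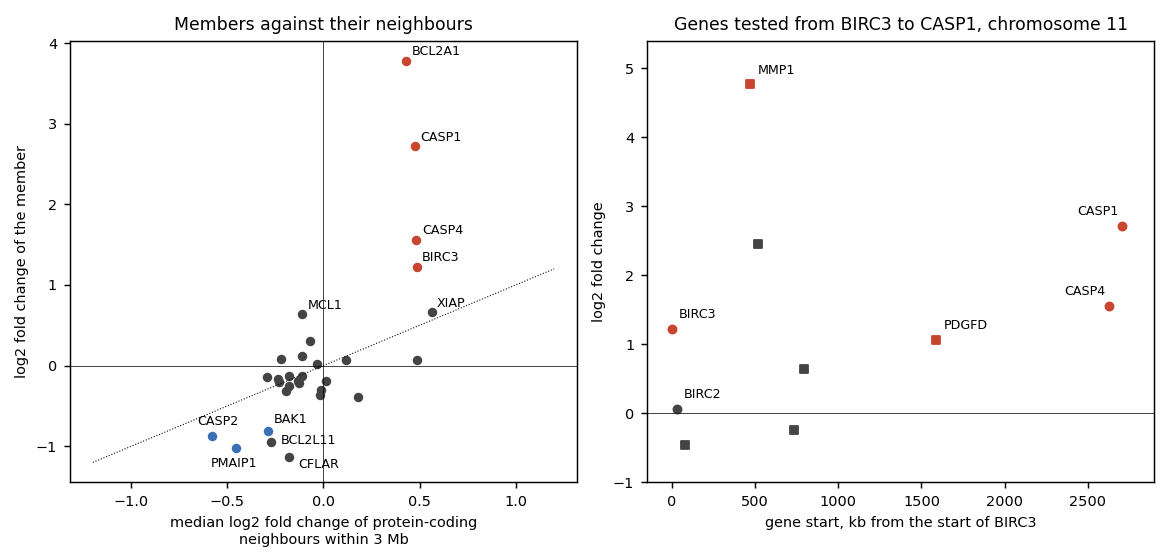
Left, log2 fold change of each member tested against the median of its protein-coding neighbours within 3 Mb, with a dotted line where they are equal. Right, log2 fold change of the 10 genes tested from BIRC3 to CASP1 against the distance of their starts from that of BIRC3 in kb (circles members, squares other genes, red called higher, blue called lower). BCL2A1, CASP1, CASP4 and BIRC3 lie above the dotted line with neighbour medians between 0.43 and 0.48, and BIRC2 lies beside BIRC3 at a log2 fold change of 0.06.

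The other genes of the pathway were read from 6 lists, of which 78 genes are described here. Of these, 65 were tested, 7 were called higher and 2 lower (13.8% called, beside 9.27% of all genes). Among 14 death ligands, receptors and adapters, TNFSF10 (TRAIL), the ligand that starts the CASP8 route, was called lower, with 45.4 FPKM in MDA-MB-231 and 1.47 FPKM in LM2-4175. Its decoy receptor TNFRSF10D was called higher (12.5 and 36.5 FPKM), as were TRAF1 (3.69 and 7.43 FPKM), a partner of BIRC2 and BIRC3, and MLKL (7.47 and 16.2 FPKM), the executioner of necroptosis. Of the 7 caspases, substrates and partners tested in the list described here, 0 were called, and CASP8AP2, a partner of CASP8, had the widest change (6.45 and 10.6 FPKM) with overlapping bounds. Of 6 further IAPs and antagonists, 5 had lower FPKM in LM2-4175, BIRC5 among them. SEPT4, an isoform of which antagonizes XIAP, was called lower (4.39 and 1.60 FPKM), though not once each cell line was rescaled to the same sum. XAF1, another XIAP antagonist, had 4.69 and 1.61 FPKM with overlapping bounds.

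Of 13 genes of the p53 pathway, CDKN1A, the cell cycle inhibitor (46.8 and 77.0 FPKM), and AEN, an exonuclease of apoptosis (14.6 and 29.4 FPKM), were called higher, in contrast to PMAIP1, which the same factor regulates. Of 11 inflammasome and pyroptosis genes, the sensor NLRP3 (1.79 and 5.23 FPKM) and CARD16 were called higher beside CASP1. IL18, a CASP1 substrate, had 22.3 and 60.2 FPKM with overlapping bounds. The DNA sensor AIM2 had 5.58 FPKM (from 3.83 to 7.34) and 2.98 FPKM (from 1.93 to 4.04), also overlapping, and 5 of the 11 genes had lower FPKM in LM2-4175. None of the 14 further BCL2 relatives and mitochondrial pore genes was called. The widest change there was that of the calcium channel ITPR1 (2.59 and 5.97 FPKM).

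**Figure D5:**
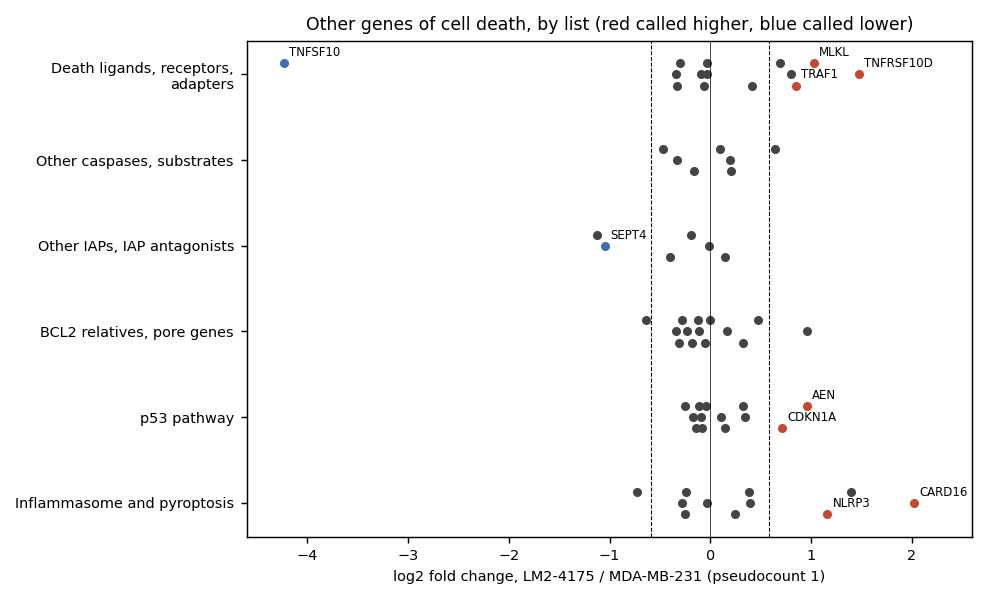
Log2 fold change of the 65 genes tested in 6 further lists of cell death genes, 1 point a gene, with dashed lines at a 1.5-fold change (vertical position within a list carries no value). TNFSF10 lies far to the left of the other genes, and the 7 genes called higher (red) are spread over 3 of the lists.

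Of 7 markers of mesenchymal breast cancer lines, 6 were tested, and 4 of the 6 had lower FPKM in LM2-4175. VIM was at 1355 and 1768 FPKM and AXL at 402 and 322 FPKM, CAV1 was called lower (587 and 151 FPKM), and CDH2 was near 0 (0.221 and 0.0839 FPKM). Of 9 luminal markers, ESR1 and PGR were near 0, and KRT8 (626 and 180.2 FPKM), KRT18 and EPCAM were present and called lower in LM2-4175. GATA3 (3.10 and 2.42 FPKM) and ERBB3 (2.05 and 4.20 FPKM) were present at low levels and not called. The white blood cell markers summed to 109 and 181 FPKM, almost all of it CD68. Of 7 fibroblast and vessel markers, 6 were found in the table, where COL1A1 was called higher (3.16 and 31.0 FPKM) and PDGFRB and LUM lower. The 6 lung epithelium markers all fell below the filter. They summed to 0.722 and 0.0965 FPKM, most of it NKX2-1 (0.565 and 0.0855 FPKM). The part of such shifts in the members' changes was not tested.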

How the data were processed

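Libraries were grouped by cell line from the sample titles, with 2 of MDA-MB-231 and 2 of LM2-4175. Per the study's methods, the authors mapped reads to hg19 with TopHat 2.0 and quantified GENCODE 19 genes with Cufflinks (the labels name TopHat2 and Cuffdiff). They deposited 1 FPKM per gene and cell line, both libraries combined, with bounds and a status, which was other than OK for 8 genes. Library normalization and use of strand are not given in the sources used here, so exon overlaps on either strand are reported. FPKM summed to 632944 in MDA-MB-231 cells and 598147 in LM2-4175 cells.

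Log2 fold changes (pseudocount 1) were computed over all genes in Python 3.11.15 with NumPy 2.4.6 and pandas 2.3.3 and drawn with Matplotlib 3.10.9. A call needed OK on both sides, a mean FPKM of at least 0.5, a 1.5-fold change and bounds apart. Limma, planned for values per library, could not be run on pooled values. The call rule was tested on simulated data, with noise set from the width of the bounds, and the motif search on made sequences. The other steps were not tested in this way. Alternatives were other pseudocounts, filters, folds, scalings and windows, and, added after seeing the data, the guardian ratio without single members. Positions and overlaps came from GENCODE 44 on GRCh37 (55535 genes matched, 2280 not), promoters from RefSeq on GRCh38.p14 for 27 of 33 members. PIDD1 was matched by identifier, and PECAM1 was not matched. The values of 1 listed gene are left out.

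The members, lists and rules were chosen with earlier results of these data known. Every member is named, of each further list the genes called and at most 3 others of widest change, and of neighbours counts and medians, with exceptions said in the text.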

Additional observations from a re-analysis of the deposited data

How the results depend on the processing

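Of 12 alternatives, 5 alter the fold change itself, and in the 35 values these gave, the 7 members called kept their direction. That was largely fixed beforehand, since a pseudocount cannot turn a sign and rescaling to the same sum or centring shifted values only slightly. Of the members not called, BCL2L1 and CASP9 turned sign with quantile normalization, each within 1.5-fold. BCL2A1, CASP1, CASP4, BIRC3 and PMAIP1 were called under each of the 12. Several of the 12 could not have undone these calls. Fold alone, bounds alone and no filter on low values only drop a condition. Leaving out genes with short exons or a low mean FPKM could not reach these members, given their length and level. With a change of at least 2-fold, BAK1 and CASP2 were not called, which left 1 member called lower. That member, PMAIP1, was just past 2-fold as deposited (log2 fold change −1.02). It was under 2-fold when rescaled to the same sum (−0.94), centred on the median of all genes (−0.97) or quantile normalized (−0.90). By fold alone 5 members were called lower, because CFLAR and BCL2L11 joined, and MCL1 and XIAP joined those called higher. Across all genes, 649 were called higher and 641 lower. A mean FPKM of at least 5 gave 321 higher, a 2-fold change gave 403 lower, and the fold alone gave 1434 higher and 1640 lower. The further lists then gave 12 higher and 5 lower, and 1 lower with FPKM rescaled to the same sum, where SEPT4 was not called. Without its largest member, the ratio of the summed FPKM was 1.59 for the guardians, 1.78 for the IAPs and 11.3 for the inflammatory caspases. With windows of 10 Mb, the neighbour median was −0.23 for CASP1, −0.23 for CASP4 and −0.23 for BIRC3, and with windows of 1 Mb it was 1.06 for CASP1 and 1.54 for CASP4, resting on 3 and 2 genes (PDGFD and CARD16 in both, and MSANTD4). Chosen after the data were seen, a limit of 0.5 FPKM in each cell line gave 0.0031 for CASP1. The cause was not tested. No paired analysis was possible because the table holds 1 pooled value per cell line, and for the same reason no library could be left out. Low members have wide bounds (BIK 60.1% and 66.1% above its FPKM), which limits what could be called.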

Other observations

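The start regions of the members called differed in base composition, with CASP1 left out because it had no promoter window. The promoter window of BCL2A1 held 41% G and C with 2 CpG dinucleotides, and that of CASP4 held 39.7% with 3, beside medians of 58.7% and 14 over all 35116 windows. BIRC3 held 53.3% with 15 CpG. Among the genes called lower, PMAIP1 held 71.3% with 42 CpG and BAK1 held 58.7% with 7, and the windows of CASP2 ranged from 43% with 4 to 71.3% with 35. With so few genes this is a description, and no test was run.

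Of the 27 members with a promoter window, 6 held the NF-kB consensus (BIRC3, BIRC6, BMF, CASP2, CFLAR and HRK). By window this is 6 of 49, or 12.2%, near the 11.3% of all windows. Of these, BIRC3 was called higher and CASP2 was called lower, so a match went with either direction. The ISRE was found in 4 members (BBC3, BCL2A1, BCL2L14 and CASP8), of which BCL2A1 was called. By window this is 4 of 49, or 8.16%, beside 3.57% of all windows. The GC box was in 32 of 49 windows (65.3%), beside 45% of all windows. These differences in shares were not tested. Members with more than 1 window had more chances to hold a match, since the 27 members had 49 windows.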
